A study of Mus musculus with 10 samples.

Results

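Trp53 encodes p53, and the genes described here are a set of 36: Trp53 itself, genes that regulate p53, and genes known as its targets in cell cycle arrest, growth control, DNA repair and cell death. They were chosen by symbol from the 24421 genes of the deposited tables, and all 36 symbols were found. Sorted by their known roles, 4 are counted as p53 and its regulators, 9 under arrest, 4 under growth signalling and metabolism, 5 under repair and 14 under death. RNA was measured by total RNA sequencing of mouse embryos of BDF1 genotype at the 8-cell stage, in 10 libraries that form 5 groups of 2. The groups are control embryos (Ctrl), embryos with a knockdown of Klf5 (siKlf5), embryos with a knockdown of Tfap2c (siTfap2c), and 2 groups labelled as knockouts of Tfap2c motifs, Arpc1bE_CdxE1_KO and CdxE2_KO. How the knockdowns and knockouts were made, what the control embryos received and where the removed motifs lie are not given in the sources used here. Klf5, a Krüppel-like factor, and Tfap2c, an AP-2 factor, bind DNA and act in the early embryo and in the outer, trophectoderm lineage that Cdx2 marks.

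The p53 protein is held low in unstressed cells because Mdm2, itself a p53 target, marks it for destruction, and the related Mdm4 blocks its activity. After DNA damage or other stress p53 is stabilised and switches on genes that stop the cell cycle, repair DNA, restrain growth or start death through mitochondria, where Bcl2 family proteins such as Puma (Bbc3) and Noxa (Pmaip1) act before Apaf1 and the caspases. Much of this control acts on the protein, which RNA levels do not show, and in the early embryo p53 is known as a guard against cells with damaged or missegregated chromosomes.

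Levels are given as log2(abundance + 1), here called log2 units, and pairs of values are given in the order replicate 1, replicate 2. The added 1 makes differences of low genes smaller, and neither the kind of abundance nor the read depth is known, so levels are compared between groups and never between genes. The control libraries stand in the table of the motif knockouts, and each knockdown stands in a table of its own. Comparisons of the knockdowns with control and with each other therefore run across tables whose scaling may differ. The 4 motif knockout libraries stand apart from the other 6: their linear values sum to between 478651 and 498621 units against 388454 to 395401, and the median tested gene was higher than in control by 0.27 log2 units in Arpc1bE_CdxE1_KO and by 0.29 in CdxE2_KO. Calls in the motif knockouts against control are therefore also read with each library centred on its own median. Klf5 fell by 2.90 in siKlf5 and Tfap2c by 2.60 in siTfap2c. In siTfap2c Klf5 also fell by 1.78, Arpc1b by 3.34 and Cdx2 by 2.02, and in siKlf5 Cdx2 fell by 1.23, a call lost without any 1 of the 4 libraries (highest adjusted p = 0.103). Arpc1b fell by 1.31 in Arpc1bE_CdxE1_KO. Cdx2 fell by 1.27 in Arpc1bE_CdxE1_KO, a call lost without either control library (highest adjusted p = 0.105), and by 1.54 in CdxE2_KO, a call lost without CdxE2_KO replicate 2 or either control library (highest adjusted p = 0.0572). All 9 markers of the 8-cell embryo were above 1 linear unit in every library. Klf5 and Tfap2c, the targets of the knockdowns, are among these markers. The levels of some others also differed between control and siTfap2c. Tdgf1 stood at 5.95 and 5.73 log2 units in control and at 3.04 and 2.99 in siTfap2c, Pou5f1 at 6.48 and 6.50 against 4.89 and 5.14, and Klf17 at 6.54 and 6.79 against 7.92 and 7.63. Markers also shifted in other groups. Nanog stood at 3.95 and 3.45 in control, 3.02 and 2.67 in siKlf5 and 2.83 and 2.61 in siTfap2c. In the knockouts it stood at 5.33 and 4.75 (Arpc1bE_CdxE1_KO) and at 4.74 and 4.96 (CdxE2_KO). Klf17 stood at 7.20 and 7.18 in siKlf5, 7.40 and 7.38 in Arpc1bE_CdxE1_KO and 7.57 and 7.82 in CdxE2_KO. The part of these shifts in the results was not tested. Of 11 markers of cumulus and granulosa cells, the maternal cells around the egg, 10 stayed under 1 linear unit in every library, 3 of them at 0, with a sum of 1.16 to 2.22. Each library is a bulk sample, so RNA in fewer cells and less RNA per cell cannot be told apart.

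Promoter sequences of these genes were searched for the known DNA sites of p53 and of AP-2 factors. Sequences are from RefSeq on the build GRCm38.p6 and cover 250 bases before to 50 bases after each listed start. Some genes have several starts (32851 windows for 27025 genes), and a gene counted as matched if any of its windows held the motif. Of the 36 members 28 were in the table (Ddb2, Trp53inp1, Pmaip1, Zmat3, Xpc, Rrm2b, Perp and Tnfrsf10b were not). Searched on both strands, the p53 decamer motif, a run of purines, a C, a pair of A or T bases, a G and a run of pyrimidines, occurred in 12 of these 28 members and in 9.55% of all genes in the table. In Polk and Sesn1 the decamer lies by a start inside the gene. A pair of decamers with a spacer of at most 13 bases, the form p53 binds as a tetramer, occurred in 1 member, Cdkn1a, and in 0.074% of all genes. The spelling GCCNNNGGC, the core of the AP-2 site that Tfap2c recognises, reads the same on both strands and occurred in 12 of 28 members and in 18.5% of all genes. The lines below show the decamers of Cdkn1a, Ccng1, Mdm2, Trp53 and Bax as examples, with the decamer in capitals, each 5′ to 3′ on the gene's own strand.
Cdkn1a, chr17:29090886-29090957, plus strand, decamer pair: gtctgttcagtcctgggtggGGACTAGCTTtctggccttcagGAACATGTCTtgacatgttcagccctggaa
Ccng1, chr11:40755437-40755496, minus strand: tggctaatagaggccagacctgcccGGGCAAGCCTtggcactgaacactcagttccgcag
Mdm2, chr10:117710910-117710969, minus strand: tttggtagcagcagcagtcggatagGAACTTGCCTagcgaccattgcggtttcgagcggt
Trp53, chr11:69580259-69580318, plus strand: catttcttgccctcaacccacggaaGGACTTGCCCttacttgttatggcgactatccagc
Bax, chr7:45467065-45467124, minus strand: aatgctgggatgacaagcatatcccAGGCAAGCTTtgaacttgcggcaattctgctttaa
The next lines show the AP-2 core in capitals for a regulator and for a death gene that rose in siTfap2c.
Mdm2, chr10:117710759-117710799, minus strand: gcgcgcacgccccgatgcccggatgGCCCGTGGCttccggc
Apaf1, chr10:91082848-91082906, minus strand: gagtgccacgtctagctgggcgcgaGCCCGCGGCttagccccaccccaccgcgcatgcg
In Cdkn1a the decamers are separated by 12 bases and the first begins 73 bases before the listed start. The bases that directly follow the second decamer differ from the motif in their first base alone, so they were not counted as a decamer. Which of these stretches p53 binds was not tested. In siTfap2c, 8 of the 12 members with a decamer rose and 0 fell, where 12.6% of all tested genes rose and 11.9% fell. Of those without one, leaving out members under 1 linear unit in both control libraries, 8 of 11 rose and 1 fell. With the AP-2 core 7 of 11 rose, and without it 9 of 12 rose and 1 fell. As deposited, 10 of 12 members with a decamer and 4 of the same 11 without rose in Arpc1bE_CdxE1_KO, where 23.2% of all genes rose. In CdxE2_KO these were 10 of 12 and 6 of 11, where 28.5% rose, and in siKlf5 3 of 12 and 1 of 11, where 2.25% rose. In each, 0 with a decamer and 1 without fell. The split was not tested and was not made with libraries centred. A match is a stretch of letters and not a measured site.

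Knockdown of Tfap2c came with higher RNA of most tested members of this set, and knockdown of Klf5 with a change of few. The set was chosen with earlier results of these data known, so its counts do not stand for p53 targets in general. Of 13 tested p53 targets outside the set, 2 rose and 4 fell in siTfap2c. In siTfap2c, 22 of the 34 members that could be tested rose and 3 fell, at an adjusted p under 0.05 in limma, where 24.6% of all 11195 genes tested were called (12.6% higher and 11.9% lower). The members' median difference was 0.66 log2 units, that of all tested genes 0.04. In siKlf5, 5 members rose and 2 fell, where 7.52% of all genes were called (2.25% higher and 5.27% lower), and the medians were 0.09 for the members and -0.02 for all genes. With libraries centred the siKlf5 split was 6 higher and 1 lower among members, and 3.39% higher and 3.94% lower among all genes. The members that fell in siTfap2c were Perp and Ppp1r13b of the death arm and Xpc of the repair arm. Ccng2 and Fas did not reach 1 linear unit in at least 2 libraries and were not tested. Btg2, Phlda3 and Moap1 were under 1 unit in both control libraries and passed the filter through other groups alone, which favours a rise over control. Without them 20 of 31 members rose and 3 fell in siTfap2c, and 4 rose and 2 fell in siKlf5.

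As deposited, most members also rose in the motif knockouts, and most of those calls were lost with libraries centred. In Arpc1bE_CdxE1_KO 22 of 34 members rose and 1 fell, where 24% of 10920 tested genes were called (23.2% higher and 0.815% lower). In CdxE2_KO 23 rose and 1 fell, where 29.9% were called (28.5% higher and 1.44% lower). Without Btg2, Phlda3 and Moap1 these counts were 20 and 21 of 31 higher and 1 lower in each. With libraries centred, 10 rose and 1 fell in Arpc1bE_CdxE1_KO, where 2.94% of all genes were called (1.63% higher and 1.31% lower), and 9 rose, Moap1 among them, and 1 fell in CdxE2_KO, where 6.24% were called (2.64% higher and 3.6% lower). The members' median difference after centring was 0.35 in each knockout, against -0.05 and -0.04 for all genes. All comparisons with control share the same 2 control libraries, so their values are set side by side and their likeness is not counted. The labels do not say that the libraries of a group come from separate embryo pools, so the p-values reflect how these libraries spread, which may be technical.

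**Figure D1:**
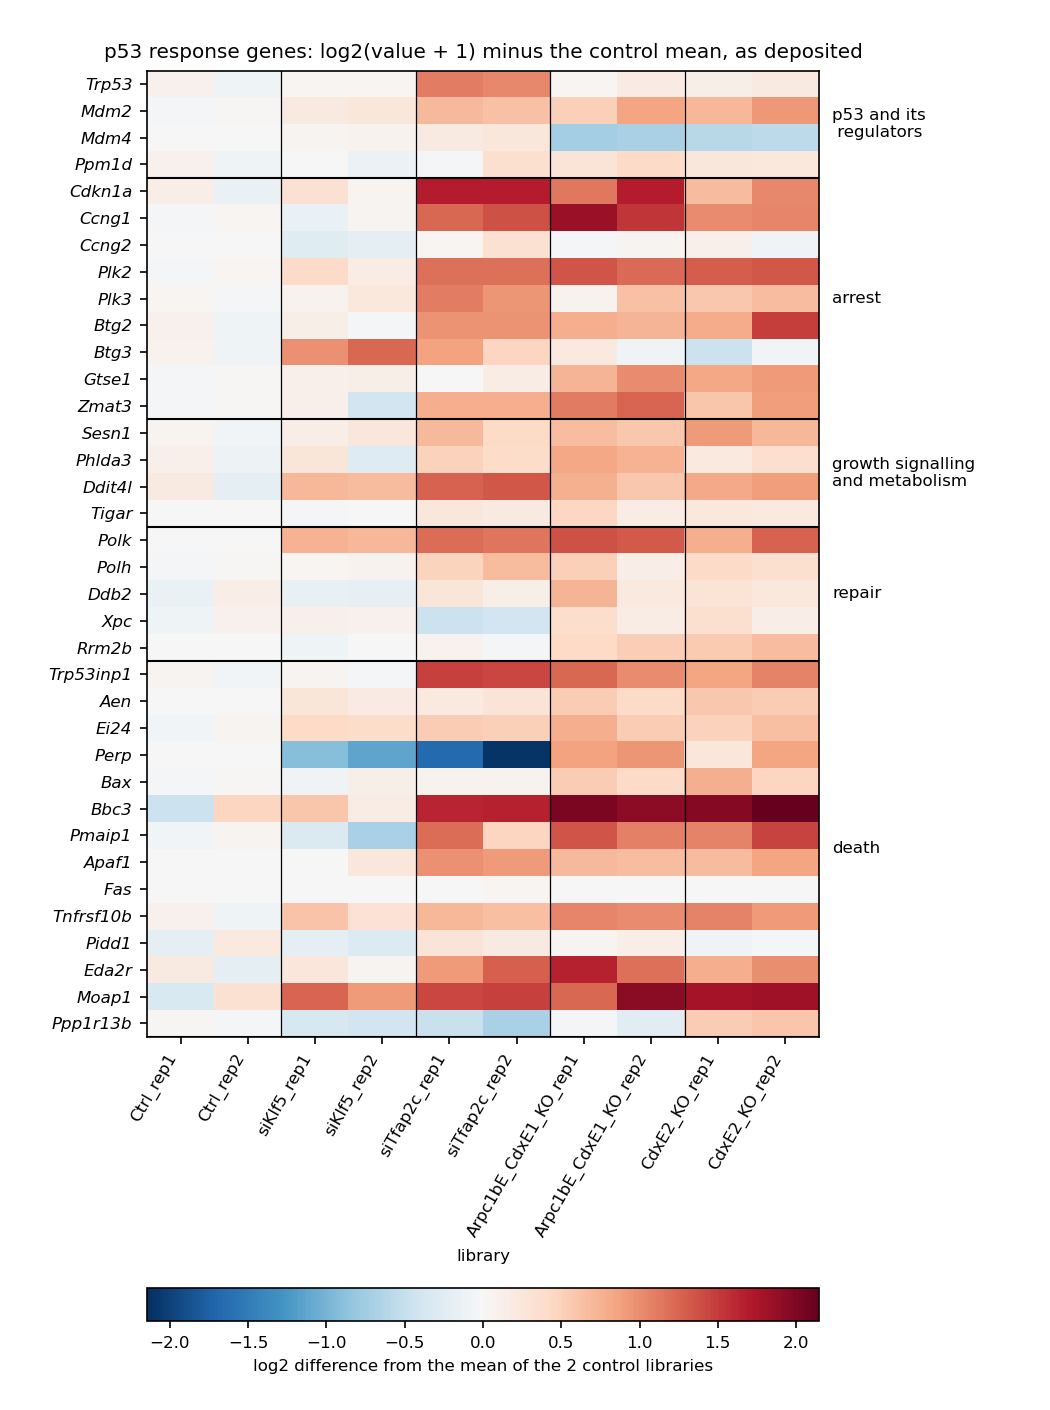
Heat map of the 36 members (rows, grouped by arm) in the 10 libraries (columns), coloured by the log2(value + 1) level minus the mean of the 2 control libraries, as deposited. Most members are red in both siTfap2c libraries and in the 4 motif knockout libraries, Mdm4 is blue in the knockouts alone, and Perp is blue in both knockdowns and red in the knockouts.

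Arrest and death genes, which are most of the tested members, made up most of the calls. Of all tested genes 12.6% rose and 11.9% fell in siTfap2c, and 2.25% rose and 5.27% fell in siKlf5. As deposited 23.2% rose in Arpc1bE_CdxE1_KO and 28.5% in CdxE2_KO, and after centring 1.63% and 2.64%. In siTfap2c 7 of 8 tested arrest genes rose and 0 fell, with a median difference of 0.99. In the death arm 8 of 13 rose and 2 fell (median 0.69), in the repair arm 2 of 5 rose and 1 fell (median 0.19), among growth and metabolism genes 2 of 4 rose (median 0.50), and among p53 and its regulators 3 of 4 rose (median 0.44). In Arpc1bE_CdxE1_KO the counts of genes that rose were 5 of 8 in arrest, 11 of 13 in death, 2 of 5 in repair, 3 of 4 in growth and metabolism and 1 of 4 among regulators, and after centring they were 4, 5, 1, 0 and 0. For CdxE2_KO they were 7 of 8, 11 of 13, 2 of 5, 2 of 4 and 1 of 4, and after centring 3, 6, 0, 0 and 0. Without Btg2, Phlda3 and Moap1, 6 of 7 arrest genes and 7 of 12 death genes rose in siTfap2c, 5 of 7 and 10 of 12 in Arpc1bE_CdxE1_KO, and 6 of 7 and 10 of 12 in CdxE2_KO. The one fall in each knockout, under both scalings, was that of Mdm4. In siKlf5 the genes that rose were 1 in arrest, 1 in growth and metabolism, 1 in repair and 2 in death, Moap1 among them, and both that fell were death genes. As deposited, the 25% of regulators that rose in each knockout was near the share of all genes. The difference between arms was not tested.

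**Figure D2:**
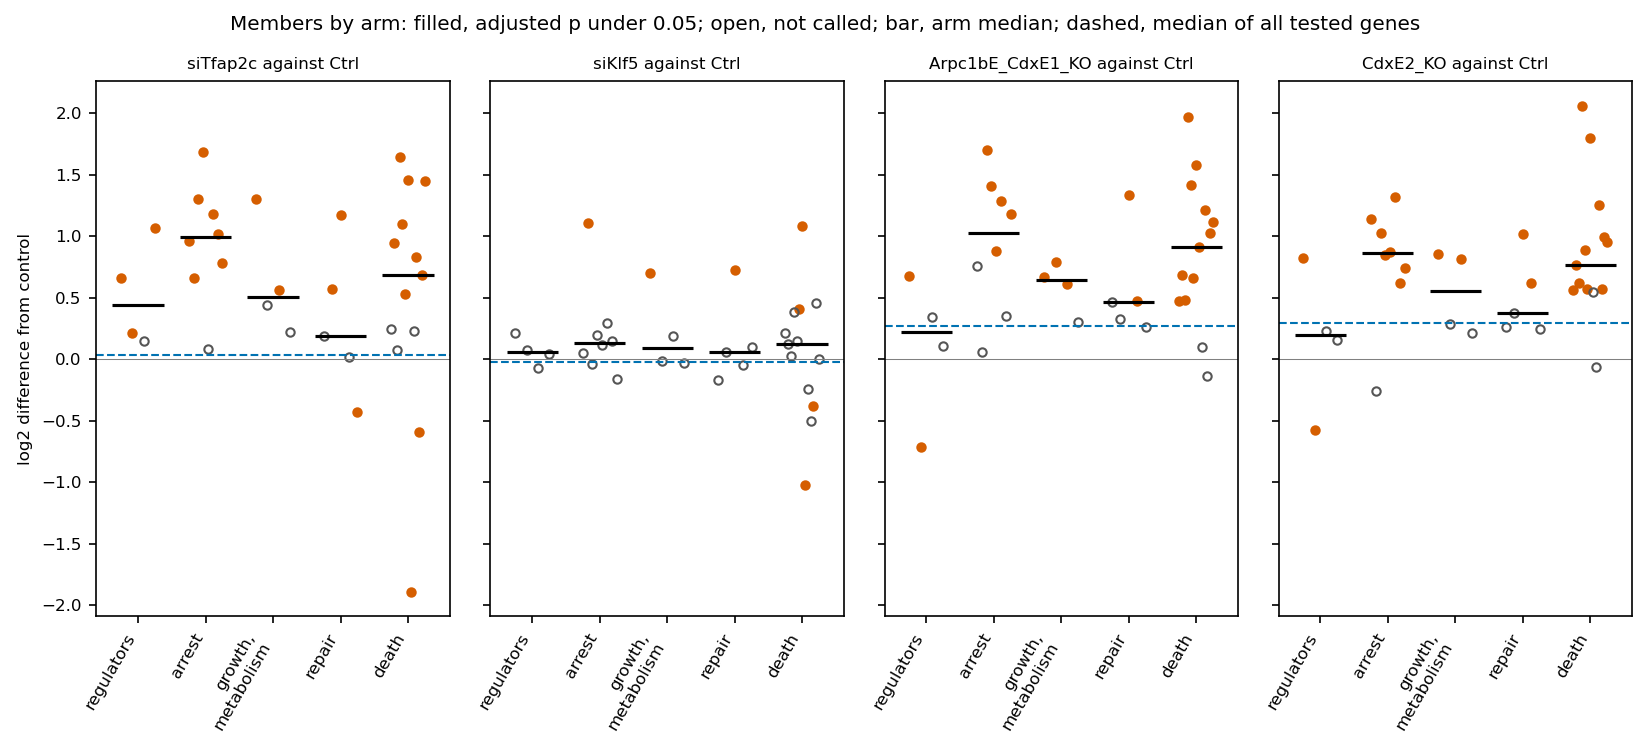
Log2 difference from control (vertical axis) of every tested member, by arm, in the 4 comparisons with control, as deposited. Filled points are members with an adjusted p under 0.05, black bars are arm medians and the dashed line is the median of all tested genes, which lies at 0.27 and 0.29 in the motif knockouts. The arrest and death arms of siTfap2c have medians of 0.99 and 0.69, and in siKlf5 most points are open.

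Among p53 and its regulators, Trp53 RNA rose in siTfap2c alone of the 4 comparisons with control. Trp53 (chromosome 11, 69580359 to 69591873, mm10) stood at 2.16 and 1.99 log2 units in control, 2.12 and 2.12 in siKlf5, 3.17 and 3.11 in siTfap2c, 2.12 and 2.25 in Arpc1bE_CdxE1_KO and 2.20 and 2.26 in CdxE2_KO. Both siTfap2c values lay above those of every other library, and the remaining groups lay within 1.99 to 2.26. The siTfap2c difference was 1.06 (SE 0.12, adjusted p = 0.000274), a ratio of linear values of 2.43. Differences elsewhere were 0.04 in siKlf5 (adjusted p = 0.894), 0.10 in Arpc1bE_CdxE1_KO (adjusted p = 0.618) and 0.16 in CdxE2_KO (adjusted p = 0.434). After centring the knockout differences turned sign, to -0.22 (adjusted p = 0.421) and -0.18 (adjusted p = 0.504). Trp53 also stood higher in siTfap2c than in siKlf5, by 1.02 (SE 0.12, adjusted p = 0.000373), and the direct comparison with the motif knockouts is given further on.

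Mdm2, the ubiquitin ligase that limits p53 and whose gene p53 switches on (chromosome 10, 117688875 to 117710758), stood at 2.40 and 2.45 log2 units in control, 2.62 and 2.66 in siKlf5, 3.13 and 3.05 in siTfap2c, 2.94 and 3.27 in Arpc1bE_CdxE1_KO and 3.15 and 3.35 in CdxE2_KO. Every siTfap2c and motif knockout library lay above control, and the siKlf5 libraries lay slightly above it. Mdm2 rose by 0.66 (SE 0.13, adjusted p = 0.00623) in siTfap2c, while in siKlf5 the difference was 0.22 (adjusted p = 0.389). The rises as deposited were 0.68 (SE 0.15, adjusted p = 0.0241) in Arpc1bE_CdxE1_KO and 0.82 (SE 0.15, adjusted p = 0.0111) in CdxE2_KO. Neither passed after centring, where the differences were 0.36 (adjusted p = 0.244) and 0.49 (adjusted p = 0.114). As deposited the first call was also lost without Arpc1bE_CdxE1_KO replicate 2 or either control library (highest adjusted p = 0.114) and the second without CdxE2_KO replicate 2 or either control library (highest adjusted p = 0.075).

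Mdm4, the inhibitor of p53 activity (chromosome 1, 132959484 to 133030561), was the one member called lower in the motif knockouts. Its levels were 7.34 and 7.32 log2 units in control, 7.40 and 7.41 in siKlf5, 7.52 and 7.57 in siTfap2c, 6.61 and 6.63 in Arpc1bE_CdxE1_KO and 6.74 and 6.78 in CdxE2_KO. The 4 knockout libraries lay below all others with no overlap, and both siTfap2c libraries lay at the top. Mdm4 fell by 0.71 (SE 0.08, adjusted p = 0.00347) in Arpc1bE_CdxE1_KO and by 0.57 (SE 0.08, adjusted p = 0.00492) in CdxE2_KO. After centring the differences were -1.04 and -0.91 (adjusted p = 0.000907 and 0.00191). As deposited, both calls were kept without each single library. In siTfap2c Mdm4 rose by 0.22 (SE 0.06, adjusted p = 0.0308), a call lost after centring and without any 1 of the 4 libraries (highest adjusted p = 0.17). Ppm1d, the phosphatase Wip1 that turns p53 signalling off, stood at 1.20 and 1.00 log2 units in control, 1.08 and 0.97 in siKlf5, 1.06 and 1.44 in siTfap2c, 1.38 and 1.51 in Arpc1bE_CdxE1_KO and 1.34 and 1.32 in CdxE2_KO and passed no test against control.

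**Figure D3:**
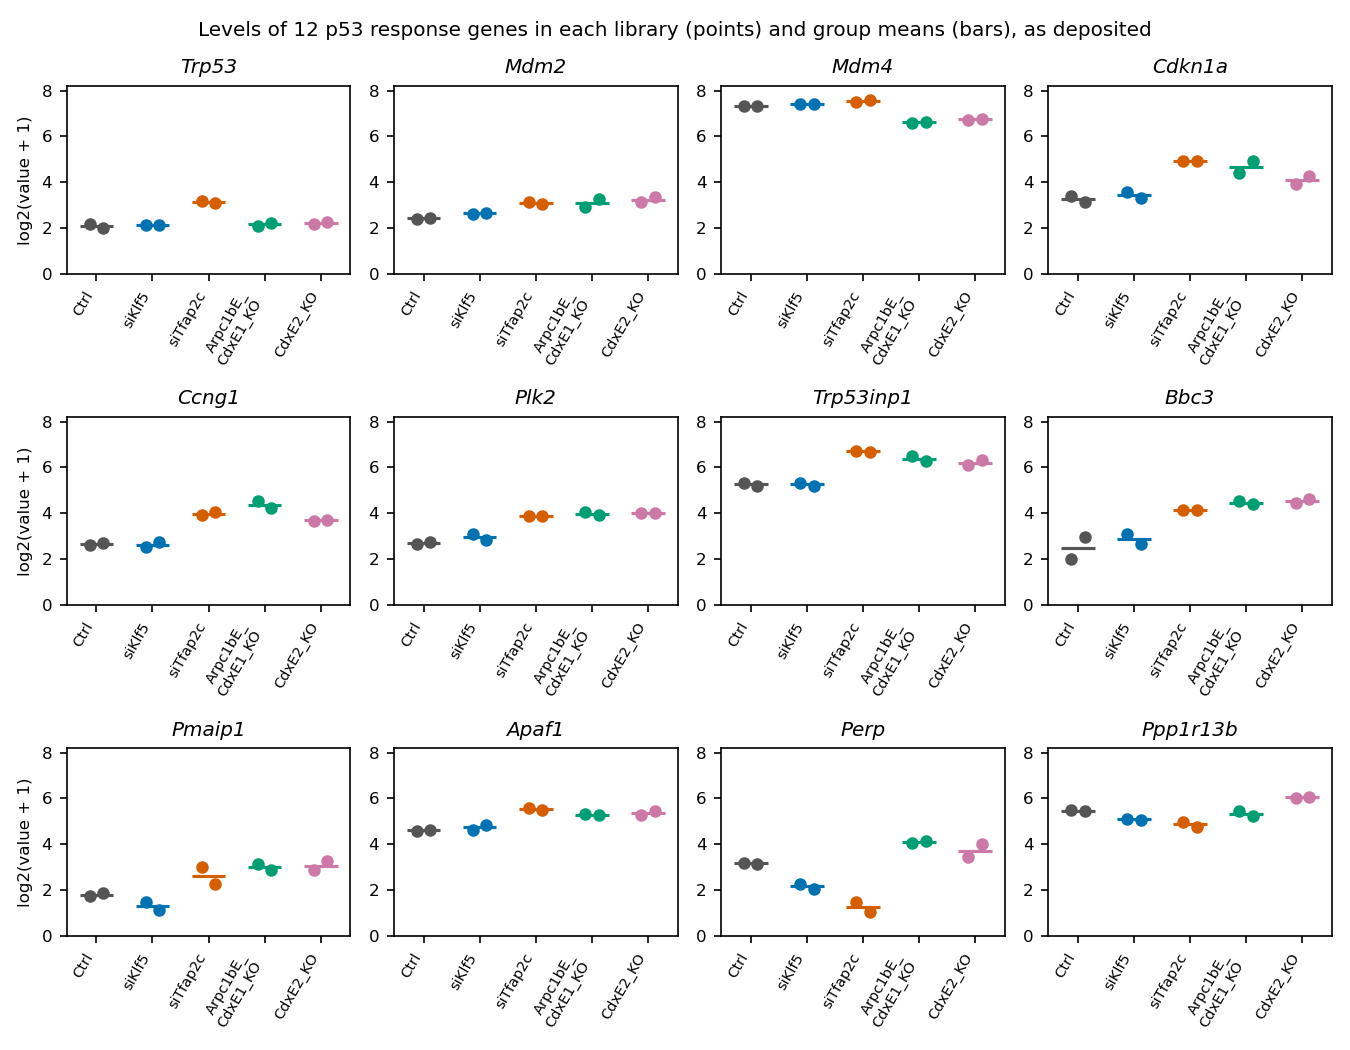
Level of 12 members in each library (points) with the mean of the 2 libraries (bars), on the log2(value + 1) scale as deposited, by group. Trp53 is high in siTfap2c alone, Mdm4 is low in the motif knockouts, Cdkn1a, Ccng1, Plk2, Trp53inp1, Bbc3 and Apaf1 are high in siTfap2c and in both knockouts, and Perp is low in both knockdowns.

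Of the 8 tested arrest genes, Btg2 included, Gtse1 alone was not called in siTfap2c. Cdkn1a, which encodes the kinase inhibitor p21 and is the classic p53 target (chromosome 17, 29090976 to 29100727), stood at 3.41 and 3.13 log2 units in control, 3.59 and 3.33 in siKlf5, 4.94 and 4.95 in siTfap2c, 4.40 and 4.94 in Arpc1bE_CdxE1_KO and 3.94 and 4.29 in CdxE2_KO. The siTfap2c pair and both knockout pairs lay above control, and the siKlf5 pair overlapped it. It rose by 1.68 (SE 0.19, adjusted p = 0.000274) in siTfap2c, a ratio of linear values of 3.44. The siKlf5 difference was 0.20 (adjusted p = 0.606). In Arpc1bE_CdxE1_KO it rose by 1.40 (SE 0.21, adjusted p = 0.00939) and still did after centring (1.08, adjusted p = 0.0492), but not without Ctrl replicate 2 (adjusted p = 0.0689). In CdxE2_KO the rise of 0.85 (SE 0.21, adjusted p = 0.0251) was lost after centring (0.52, adjusted p = 0.19) and without any 1 of the 4 libraries (highest adjusted p = 0.132).

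Ccng1, the atypical cyclin G1 (chromosome 11, 40748552 to 40755311), stood at 2.64 and 2.72 log2 units in control, 2.54 and 2.74 in siKlf5, 3.91 and 4.05 in siTfap2c, 4.54 and 4.22 in Arpc1bE_CdxE1_KO and 3.68 and 3.73 in CdxE2_KO. The siKlf5 pair overlapped control, and the other 6 libraries lay at 3.68 or above. Its rises were 1.3 (SE 0.13, adjusted p = 0.000127) in siTfap2c, 1.7 (SE 0.13, adjusted p = 0.00101) in Arpc1bE_CdxE1_KO and 1.03 (SE 0.13, adjusted p = 0.00492) in CdxE2_KO. After centring both knockout calls were kept (1.38 and 0.70, adjusted p = 0.00264 and 0.0295). Plk2, a polo-like kinase (chromosome 13, 110395046 to 110400844), stood at 2.65 and 2.74 log2 units in control, 3.11 and 2.86 in siKlf5, 3.88 and 3.87 in siTfap2c, 4.04 and 3.91 in Arpc1bE_CdxE1_KO and 4.0 and 4.02 in CdxE2_KO. All siTfap2c and knockout libraries lay at 3.87 or above, and siKlf5 stood between them and control. It rose by 1.18 (SE 0.11, adjusted p = 9.49e-05), 1.28 (SE 0.11, adjusted p = 0.00153) and 1.32 (SE 0.11, adjusted p = 0.0016) in the same order, and by 0.96 and 0.99 after centring (adjusted p = 0.00689 and 0.00588). As deposited, the calls of Ccng1 and Plk2 in these 3 comparisons were kept without each single library.

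Zmat3, which encodes an RNA-binding zinc finger protein, stood at 4.07 and 4.12 log2 units in control, 4.20 and 3.68 in siKlf5, 4.88 and 4.87 in siTfap2c, 5.21 and 5.34 in Arpc1bE_CdxE1_KO and 4.68 and 4.99 in CdxE2_KO. It rose by 0.78 (SE 0.16, adjusted p = 0.0069) in siTfap2c, 1.18 (SE 0.12, adjusted p = 0.00347) in Arpc1bE_CdxE1_KO and 0.74 (SE 0.12, adjusted p = 0.00848) in CdxE2_KO. The 3 groups lay above control without overlap, and after centring Arpc1bE_CdxE1_KO was still called (0.86, adjusted p = 0.0199) and CdxE2_KO was not (0.41, adjusted p = 0.104). The CdxE2_KO call was also lost without CdxE2_KO replicate 2 and without either control library (highest adjusted p = 0.0593). Plk3, a second polo-like kinase, stood at 2.41 and 2.32 log2 units in control, 2.44 and 2.60 in siKlf5, 3.46 and 3.31 in siTfap2c, 2.44 and 2.99 in Arpc1bE_CdxE1_KO and 2.95 and 3.02 in CdxE2_KO. Both siTfap2c libraries lay above all others, and Arpc1bE_CdxE1_KO replicate 1 lay near control. Plk3 rose by 1.02 (SE 0.17, adjusted p = 0.00231) in siTfap2c. In CdxE2_KO the rise of 0.62 (SE 0.19, adjusted p = 0.0461) was lost after centring (0.29, adjusted p = 0.406) and without any 1 of the 4 libraries (highest adjusted p = 0.175).

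Btg2 and Btg3 belong to the BTG/Tob family of growth inhibitors, and Btg2, under 1 linear unit in both control libraries, entered the test through other groups alone. Btg2 stood at 0.73 and 0.54 log2 units in control, 0.77 and 0.61 in siKlf5, 1.60 and 1.60 in siTfap2c, 1.42 and 1.37 in Arpc1bE_CdxE1_KO and 1.43 and 2.12 in CdxE2_KO. It was low in control and siKlf5 and at 1.37 or above in the other 6 libraries, with CdxE2_KO replicate 2 the highest. It differed from control by 0.96 (SE 0.22, adjusted p = 0.0102) in siTfap2c, a call lost without either siTfap2c library or Ctrl replicate 2 (highest adjusted p = 0.0674), and 1.14 (SE 0.25, adjusted p = 0.0166) in CdxE2_KO, lost after centring and without CdxE2_KO replicate 2 or either control library (highest adjusted p = 0.0909). Btg3 stood at 3.16 and 3.00 log2 units in control, 4.06 and 4.32 in siKlf5, 3.94 and 3.55 in siTfap2c, 3.29 and 3.00 in Arpc1bE_CdxE1_KO and 2.63 and 3.02 in CdxE2_KO, highest in siKlf5 and next in siTfap2c, while the knockouts overlapped control. It was the arrest gene called in siKlf5, with a rise of 1.10 (SE 0.19, adjusted p = 0.00902), lost without siKlf5 replicate 2 or Ctrl replicate 2 (highest adjusted p = 0.0805). In siTfap2c it rose by 0.66 (SE 0.19, adjusted p = 0.0284), lost without siTfap2c replicate 1 or either control library (highest adjusted p = 0.2). Of its exon bases 17.3% also lie in exons of Cxadr on the opposite strand, and whether the authors' abundances used strand is not given in the sources used here.

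Gtse1, a microtubule-bound protein counted under arrest although it restrains p53, was called in the knockouts and in neither knockdown. It stood at 5.02 and 5.06 log2 units in control, 5.15 and 5.17 in siKlf5, 5.06 and 5.20 in siTfap2c, 5.78 and 6.06 in Arpc1bE_CdxE1_KO and 5.87 and 5.96 in CdxE2_KO. The knockdown libraries lay at 5.20 or below, and all 4 knockout libraries at 5.78 or above. The rises were 0.88 (SE 0.11, adjusted p = 0.00631) in Arpc1bE_CdxE1_KO, lost after centring (0.56, adjusted p = 0.0594) and without Ctrl replicate 2 (adjusted p = 0.0528), and 0.87 (SE 0.11, adjusted p = 0.00484) in CdxE2_KO, kept after centring (0.54, adjusted p = 0.045). Ccng2, cyclin G2, ranged from 0.39 to 0.99 log2 units and was not tested.

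In growth signalling and metabolism, Ddit4l, an inhibitor of mTOR signalling, was called in all 4 comparisons with control. It stood at 2.07 and 1.68 log2 units in control, 2.59 and 2.56 in siKlf5, 3.15 and 3.21 in siTfap2c, 2.64 and 2.45 in Arpc1bE_CdxE1_KO and 2.68 and 2.78 in CdxE2_KO. Every library outside control lay above both control libraries, and siTfap2c was the highest group. The rise was 1.3 (SE 0.15, adjusted p = 0.000247) in siTfap2c and 0.70 (SE 0.15, adjusted p = 0.0224) in siKlf5, where it was lost without either siKlf5 library or Ctrl replicate 2 (highest adjusted p = 0.137). The rises of 0.67 (SE 0.17, adjusted p = 0.0327) and 0.85 (SE 0.17, adjusted p = 0.0137) in the knockouts did not pass after centring (0.35 and 0.52, adjusted p = 0.268 and 0.111). As deposited they were also lost without Arpc1bE_CdxE1_KO replicate 1 or either control library (highest adjusted p = 0.163) and without either CdxE2_KO library or Ctrl replicate 2 (highest adjusted p = 0.079).

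Sesn1, a sestrin that curbs mTORC1, stood at 2.82 and 2.70 log2 units in control, 2.90 and 3.00 in siKlf5, 3.46 and 3.19 in siTfap2c, 3.42 and 3.34 in Arpc1bE_CdxE1_KO and 3.67 and 3.48 in CdxE2_KO, with all groups above control. In siKlf5 Sesn1 differed by 0.19 (adjusted p = 0.426) and was not called. It rose by 0.56 (SE 0.13, adjusted p = 0.011) in siTfap2c, a call lost without siTfap2c replicate 1 or Ctrl replicate 2 (highest adjusted p = 0.0969). As deposited it rose by 0.61 (SE 0.13, adjusted p = 0.0185) and 0.81 (SE 0.13, adjusted p = 0.00716) in the knockouts, and after centring neither passed (adjusted p = 0.224 and 0.0675). As deposited these calls were also lost without Arpc1bE_CdxE1_KO replicate 1 or either control library (highest adjusted p = 0.11) and without Ctrl replicate 2 (adjusted p = 0.053). Phlda3, which competes with Akt for membrane lipids, stood at 0.72 and 0.51 log2 units in control, 0.87 and 0.34 in siKlf5, 1.12 and 1.00 in siTfap2c, 1.45 and 1.36 in Arpc1bE_CdxE1_KO and 0.83 and 0.98 in CdxE2_KO. Its groups outside siKlf5 lay above control, and it too was under 1 linear unit in both control libraries. Its one call was in Arpc1bE_CdxE1_KO, with a difference of 0.79 (SE 0.18, adjusted p = 0.0245), lost after centring (adjusted p = 0.19) and without Arpc1bE_CdxE1_KO replicate 1 or either control library (highest adjusted p = 0.137). Tigar, a regulator of glycolysis, ranged from 6.64 to 7.13 and passed no test against control.

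Repair genes had the lowest median of the arms in siTfap2c. Polk, a DNA polymerase that copies past lesions, was called in all 4 comparisons. It stood at 2.0 and 2.01 log2 units in control, 2.75 and 2.71 in siKlf5, 3.21 and 3.15 in siTfap2c, 3.37 and 3.33 in Arpc1bE_CdxE1_KO and 2.78 and 3.28 in CdxE2_KO. All 8 libraries outside control lay above the control pair. Its rises were 1.17 (SE 0.15, adjusted p = 0.000571) in siTfap2c and 0.72 (SE 0.15, adjusted p = 0.0224) in siKlf5, the latter lost without any 1 of the 4 libraries (highest adjusted p = 0.12). In Arpc1bE_CdxE1_KO it rose by 1.34 (SE 0.18, adjusted p = 0.00671) and after centring by 1.02 (adjusted p = 0.0318), lost as deposited without Ctrl replicate 2 (adjusted p = 0.0541). In CdxE2_KO the rise was 1.02 (SE 0.18, adjusted p = 0.00912), which did not pass after centring (0.69, adjusted p = 0.0633) and was lost as deposited without CdxE2_KO replicate 2 or either control library (highest adjusted p = 0.0577).

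Polh, the polymerase that copies past ultraviolet damage, stood at 2.05 and 2.1 log2 units in control, 2.13 and 2.15 in siKlf5, 2.55 and 2.75 in siTfap2c, 2.60 and 2.22 in Arpc1bE_CdxE1_KO and 2.48 and 2.42 in CdxE2_KO. The siTfap2c pair was above control by 0.57 (SE 0.15, adjusted p = 0.0196), lost without siTfap2c replicate 2 or either control library (highest adjusted p = 0.133), and no other group was called against control. Xpc, which recognises damage for nucleotide excision repair, stood at 2.18 and 2.35 log2 units in control, 2.37 and 2.35 in siKlf5, 1.81 and 1.86 in siTfap2c, 2.63 and 2.42 in Arpc1bE_CdxE1_KO and 2.60 and 2.41 in CdxE2_KO. The siTfap2c pair lay below all other libraries. Xpc fell by 0.43 (SE 0.13, adjusted p = 0.0439), a call lost without any 1 of the 4 libraries (highest adjusted p = 0.219). Rrm2b, a subunit of ribonucleotide reductase, stood at 3.74 and 3.74 log2 units in control, 3.64 and 3.74 in siKlf5, 3.80 and 3.70 in siTfap2c, 4.16 and 4.26 in Arpc1bE_CdxE1_KO and 4.31 and 4.40 in CdxE2_KO. Its 4 knockout libraries lay above the rest, with rises of 0.47 (SE 0.10, adjusted p = 0.0201) and 0.62 (SE 0.10, adjusted p = 0.00805) that did not pass after centring (0.15 and 0.29, adjusted p = 0.426 and 0.147). As deposited the first was also lost without either control library (highest adjusted p = 0.11) and the second without CdxE2_KO replicate 2 or either control library (highest adjusted p = 0.0639). Ddb2, which binds ultraviolet damage, ranged from 1.02 to 1.92 and passed no test against control.

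The death arm held the largest rises of the set in the motif knockouts and its largest fall in siTfap2c. Bbc3, which encodes Puma, an activator of Bax and Bak (chromosome 7, 16308393 to 16318205), stood at 2.02 and 2.96 log2 units in control, 3.09 and 2.65 in siKlf5, 4.13 and 4.14 in siTfap2c, 4.52 and 4.41 in Arpc1bE_CdxE1_KO and 4.46 and 4.64 in CdxE2_KO. The control libraries lay further apart than those of any other group, and all siTfap2c and knockout libraries lay above both. Bbc3 rose by 1.65 (SE 0.26, adjusted p = 0.00164) in siTfap2c, 1.97 (SE 0.27, adjusted p = 0.00776) in Arpc1bE_CdxE1_KO and 2.06 (SE 0.27, adjusted p = 0.00503) in CdxE2_KO, ratios of linear values of 3.37, 4.28 and 4.57. Centring left rises of 1.65 and 1.73 (adjusted p = 0.028 and 0.0196). As deposited, the calls in siTfap2c and in both knockouts were kept without each single library. The siKlf5 difference was 0.38 (adjusted p = 0.435).

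Trp53inp1, a nuclear and autophagy protein that promotes death (chromosome 4, 11156431 to 11174379), stood at 5.31 and 5.21 log2 units in control, 5.31 and 5.21 in siKlf5, 6.73 and 6.69 in siTfap2c, 6.49 and 6.27 in Arpc1bE_CdxE1_KO and 6.11 and 6.32 in CdxE2_KO. The siKlf5 pair matched control to 2 decimals, and the other 6 libraries lay at 6.11 or above. It rose by 1.45 (SE 0.10, adjusted p = 1.5e-05) in siTfap2c, 1.12 (SE 0.12, adjusted p = 0.00328) in Arpc1bE_CdxE1_KO and 0.95 (SE 0.12, adjusted p = 0.00435) in CdxE2_KO, and after centring by 0.80 and 0.62 in the knockouts (adjusted p = 0.0153 and 0.0272). Apaf1, the scaffold of the apoptosome (chromosome 10, 90989311 to 91082770), stood at 4.60 and 4.62 log2 units in control, 4.62 and 4.85 in siKlf5, 5.59 and 5.52 in siTfap2c, 5.31 and 5.28 in Arpc1bE_CdxE1_KO and 5.29 and 5.45 in CdxE2_KO. Its siTfap2c and knockout libraries lay above control and siKlf5. The rises were 0.95 (SE 0.10, adjusted p = 0.000144), 0.68 (SE 0.09, adjusted p = 0.00744) and 0.76 (SE 0.09, adjusted p = 0.00443) in the same order, of which CdxE2_KO passed after centring (0.43, adjusted p = 0.0434) and Arpc1bE_CdxE1_KO did not (0.36, adjusted p = 0.0879). The Arpc1bE_CdxE1_KO call was also lost without either control library (highest adjusted p = 0.06).

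Pmaip1, which encodes Noxa, stood at 1.76 and 1.86 log2 units in control, 1.51 and 1.12 in siKlf5, 3.00 and 2.27 in siTfap2c, 3.16 and 2.89 in Arpc1bE_CdxE1_KO and 2.87 and 3.26 in CdxE2_KO. The siTfap2c libraries were both above control but further apart than those of any other group, and the siKlf5 pair lay below it. It rose by 0.83 (SE 0.25, adjusted p = 0.0355) in siTfap2c, lost without siTfap2c replicate 1 or either control library (highest adjusted p = 0.248). The knockout rises were 1.22 (SE 0.18, adjusted p = 0.00842) and 1.25 (SE 0.18, adjusted p = 0.00586), and 0.90 and 0.92 after centring (adjusted p = 0.0443 and 0.0298), and in Arpc1bE_CdxE1_KO the call was lost as deposited without either control library (highest adjusted p = 0.0581). Bax, the pore-forming partner of these proteins, stood at 3.78 and 3.85 log2 units in control, 3.74 and 3.93 in siKlf5, 3.90 and 3.88 in siTfap2c, 4.37 and 4.22 in Arpc1bE_CdxE1_KO and 4.60 and 4.27 in CdxE2_KO. It differed from control by 0.08 in siTfap2c (adjusted p = 0.715), and its rises of 0.48 (SE 0.13, adjusted p = 0.0414) and 0.62 (SE 0.13, adjusted p = 0.0166) in the knockouts did not pass after centring (0.16 and 0.29, adjusted p = 0.522 and 0.228). As deposited the first was also lost without Arpc1bE_CdxE1_KO replicate 1 or either control library (highest adjusted p = 0.179) and the second without CdxE2_KO replicate 1 or either control library (highest adjusted p = 0.0963).

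Of the death receptors, Tnfrsf10b, the mouse TRAIL receptor, stood at 3.05 and 2.87 log2 units in control, 3.56 and 3.26 in siKlf5, 3.68 and 3.61 in siTfap2c, 4.0 and 3.97 in Arpc1bE_CdxE1_KO and 4.03 and 3.88 in CdxE2_KO. All groups lay above control, with a siKlf5 difference of 0.46 (SE 0.12, adjusted p = 0.0579) that did not pass. It rose by 0.69 (SE 0.12, adjusted p = 0.00363) in siTfap2c, 1.03 (SE 0.12, adjusted p = 0.00509) in Arpc1bE_CdxE1_KO and 1.00 (SE 0.12, adjusted p = 0.00434) in CdxE2_KO. Centred, the knockout rises were 0.71 and 0.66 (adjusted p = 0.03 and 0.0275), and the first was lost as deposited without Ctrl replicate 2 (adjusted p = 0.0507). Eda2r, the ectodysplasin A2 receptor, stood at 1.14 and 0.77 log2 units in control, 1.19 and 1.01 in siKlf5, 1.88 and 2.23 in siTfap2c, 2.60 and 2.13 in Arpc1bE_CdxE1_KO and 1.73 and 1.95 in CdxE2_KO, with siTfap2c and both knockouts above control. Its rises were 1.10 (SE 0.21, adjusted p = 0.00495) in siTfap2c, 1.41 (SE 0.22, adjusted p = 0.00976) in Arpc1bE_CdxE1_KO (1.09 after centring, adjusted p = 0.0463, and lost as deposited without Ctrl replicate 2, adjusted p = 0.072) and 0.88 (SE 0.22, adjusted p = 0.0258) in CdxE2_KO (0.55 after centring, adjusted p = 0.163, and lost as deposited without any 1 of the 4 libraries (highest adjusted p = 0.135)). Fas was listed at 0 in 9 of 10 libraries and at 0.04 in the other, and Pidd1, a death domain protein, ranged from 1.25 to 1.81 with no test passed against control.

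Perp, a membrane protein of desmosomes and epithelia as well as a death gene (chromosome 10, 18845020 to 18857073), was lower than control in both knockdowns. It stood at 3.20 and 3.16 log2 units in control, 2.27 and 2.05 in siKlf5, 1.5 and 1.07 in siTfap2c, 4.05 and 4.13 in Arpc1bE_CdxE1_KO and 3.43 and 4.02 in CdxE2_KO. Both knockdowns lay below control without overlap and the siTfap2c pair was the lowest, while the 4 knockout libraries lay above it. Perp fell by 1.89 (SE 0.20, adjusted p = 0.000194) in siTfap2c and by 1.02 (SE 0.20, adjusted p = 0.0189) in siKlf5, the latter lost without any 1 of the 4 libraries (highest adjusted p = 0.127). In Arpc1bE_CdxE1_KO it rose by 0.91 (SE 0.19, adjusted p = 0.0188), which did not pass after centring (0.59, adjusted p = 0.134) or without either control library (highest adjusted p = 0.103). In CdxE2_KO the difference was 0.55 (SE 0.19, adjusted p = 0.0643), and 0.22 after centring (adjusted p = 0.519).

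Ppp1r13b, which encodes Aspp1, a cofactor that steers p53 to death genes, stood at 5.49 and 5.45 log2 units in control, 5.12 and 5.05 in siKlf5, 4.99 and 4.77 in siTfap2c, 5.43 and 5.24 in Arpc1bE_CdxE1_KO and 6.01 and 6.07 in CdxE2_KO. It was lower in both knockdowns and higher in CdxE2_KO, with no overlap with control. It fell by 0.59 (SE 0.10, adjusted p = 0.00222) in siTfap2c and by 0.38 (SE 0.10, adjusted p = 0.0467) in siKlf5, the latter lost after centring and without any 1 of the 4 libraries (highest adjusted p = 0.222). The CdxE2_KO rise of 0.57 (SE 0.10, adjusted p = 0.00858) was lost after centring (0.24, adjusted p = 0.163) and without CdxE2_KO replicate 2 or either control library (highest adjusted p = 0.0667). In Arpc1bE_CdxE1_KO it differed by -0.13 (adjusted p = 0.33), and by -0.45 after centring (adjusted p = 0.0506).

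Ei24, a protein of the endoplasmic reticulum that acts in autophagy, stood at 6.74 and 6.84 log2 units in control, 7.21 and 7.19 in siKlf5, 7.34 and 7.30 in siTfap2c, 7.57 and 7.34 in Arpc1bE_CdxE1_KO and 7.29 and 7.44 in CdxE2_KO, with all groups above control. It rose by 0.53 (SE 0.09, adjusted p = 0.00283) in siTfap2c and by 0.41 (SE 0.09, adjusted p = 0.0289) in siKlf5, the latter lost without any 1 of the 4 libraries (highest adjusted p = 0.173). Its knockout rises of 0.66 (SE 0.11, adjusted p = 0.0103) and 0.57 (SE 0.11, adjusted p = 0.0115) did not pass after centring (adjusted p = 0.122 and 0.204). As deposited the first was also lost without either control library (highest adjusted p = 0.074) and the second without CdxE2_KO replicate 2 or either control library (highest adjusted p = 0.0824). Moap1, a Bax-binding protein, stood at 0.02 and 0.67 log2 units in control, 1.60 and 1.26 in siKlf5, 1.79 and 1.81 in siTfap2c, 1.57 and 2.28 in Arpc1bE_CdxE1_KO and 2.13 and 2.16 in CdxE2_KO. All groups lay above control, whose libraries were both under 1 linear unit and the first close to 0, so Moap1 entered the test through other groups alone. It differed from control by 1.45 (SE 0.27, adjusted p = 0.00366) in siTfap2c, 1.08 (SE 0.27, adjusted p = 0.0408) in siKlf5, 1.58 (SE 0.29, adjusted p = 0.0142) in Arpc1bE_CdxE1_KO and 1.80 (SE 0.29, adjusted p = 0.00808) in CdxE2_KO. The siKlf5 call was lost without either siKlf5 library or Ctrl replicate 1 (highest adjusted p = 0.221), that of Arpc1bE_CdxE1_KO without either control library (highest adjusted p = 0.0784) and that of CdxE2_KO without CdxE2_KO replicate 2 or Ctrl replicate 1 (highest adjusted p = 0.0527). After centring the knockout differences were 1.26 and 1.47 (adjusted p = 0.0753 and 0.038). Of the exon bases of Moap1 87.7% also lie in exons of Gm20604 on the same strand, so reads of these genes may not be told apart. Bax shares 12.2% of its exon bases with Gm45808 on the same strand. On the opposite strand Ddb2 shares 23.8% with Acp2, Rrm2b 8.04% with Gm49085 and Cdkn1a 7.68% with AC167363.2. Smaller shares on the opposite strand were found for Ei24, Plk3 and Tigar. Aen, an exonuclease of apoptotic cells, stood at 3.36 and 3.38 log2 units in control, 3.62 and 3.54 in siKlf5, 3.59 and 3.65 in siTfap2c, 3.91 and 3.78 in Arpc1bE_CdxE1_KO and 3.95 and 3.92 in CdxE2_KO. It was called in the knockouts alone (0.48, SE 0.11, adjusted p = 0.0224 and 0.57 (SE 0.11, adjusted p = 0.0111)), and neither call passed after centring (adjusted p = 0.415 and 0.215). As deposited the first was also lost without Arpc1bE_CdxE1_KO replicate 1 or either control library (highest adjusted p = 0.114) and the second without any 1 of the 4 libraries (highest adjusted p = 0.0715).

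Which motif knockout calls rest on single libraries was checked by leaving out each library in turn from the values as deposited. Centred fits were run with all libraries only. In Arpc1bE_CdxE1_KO 11 members were called without Ctrl replicate 1 and 6 without Ctrl replicate 2, against 23 with all libraries, and 19 and 23 without replicates 1 and 2 of the knockout. Of all tested genes 2.82%, 1.35%, 16.9% and 25.8% were called in these fits, in the same order, against 24% with all libraries. Mdm4, Ccng1, Plk2, Zmat3, Trp53inp1 and Bbc3 were called in each of these fits and after centring. In CdxE2_KO 11 were called without Ctrl replicate 1, 10 without Ctrl replicate 2, 11 without CdxE2_KO replicate 2 and 19 without CdxE2_KO replicate 1, against 24 with all. Of all tested genes 5.76%, 6.24%, 4.37% and 9.59% were called in these fits, against 29.9% with all. Mdm4, Ccng1, Plk2, Gtse1, Trp53inp1, Bbc3, Pmaip1, Apaf1 and Tnfrsf10b were called in each of these fits and after centring. In siKlf5 between 0 and 2 of the 7 calls were left: 1 without siKlf5 replicate 1, 0 without siKlf5 replicate 2, where 9 members still had an unadjusted limma p under 0.05, 2 without Ctrl replicate 1 and 1 without Ctrl replicate 2. Of all tested genes 1.88% to 2.83% were called in these fits, against 7.52%. In siTfap2c 18 of the 25 members were called in each of the 4 such fits, in which 13.8% to 15.8% of all tested genes were called, against 24.6%.

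**Figure D4:**
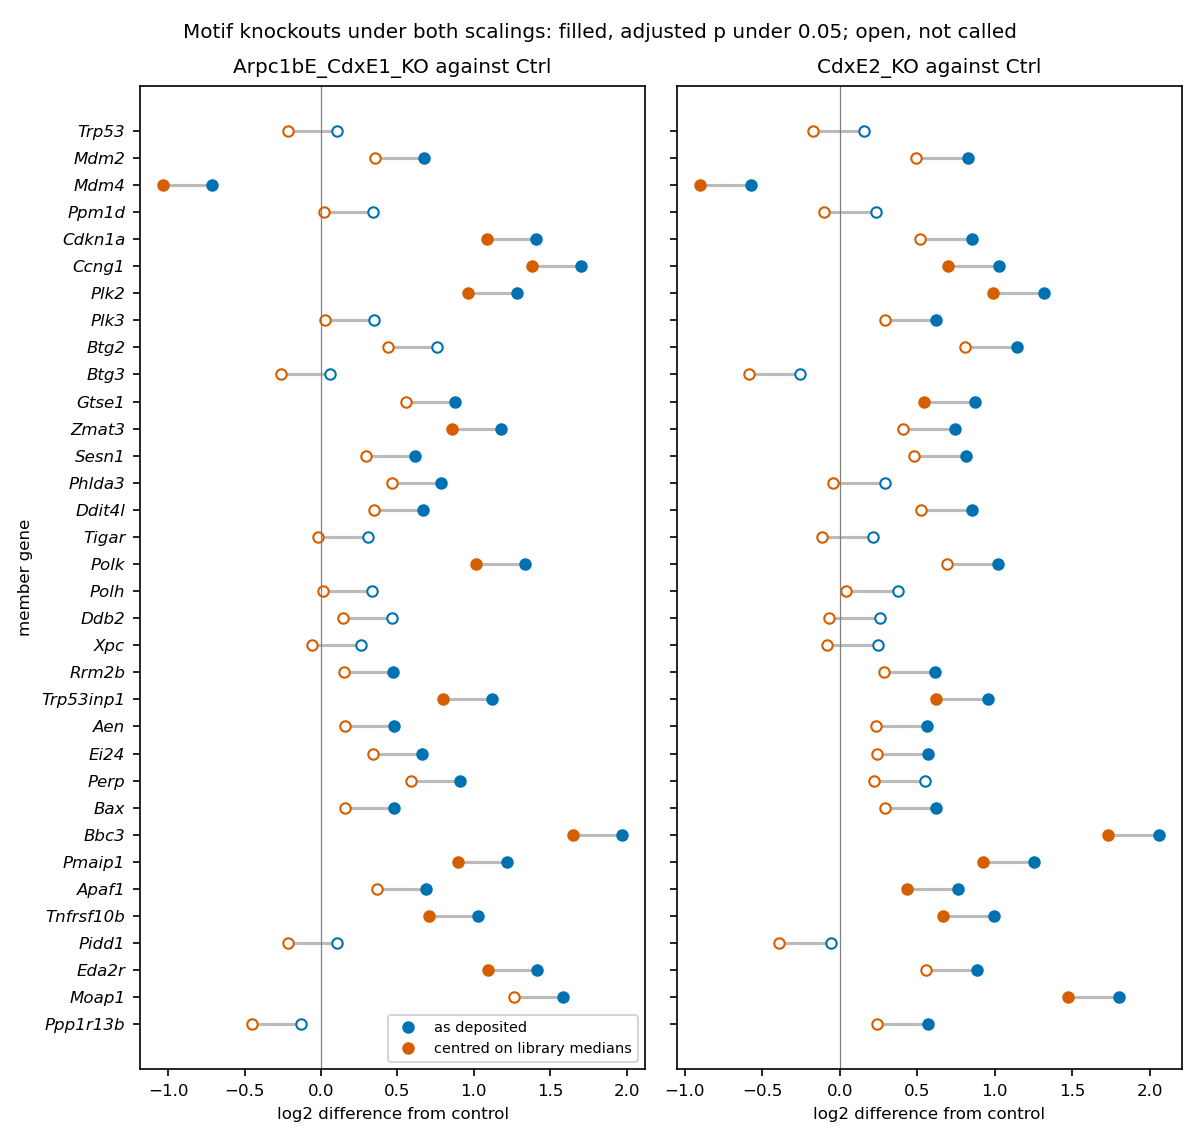
Log2 difference from control (horizontal axis) of each tested member (rows) in the motif knockouts, as deposited (blue) and with libraries centred on their medians (orange). Filled points are called at an adjusted p under 0.05, and Bbc3, Ccng1, Plk2, Trp53inp1, Pmaip1, Tnfrsf10b and Mdm4 are filled under both scalings in both panels.

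The knockdowns were compared with each other directly, without the control means. They too stand in separate tables whose scaling may differ, and the fit drew its spread from all 10 libraries. Higher in siTfap2c than in siKlf5 were 15 of 34 members and lower were 2, where 25.6% of all genes were called (15.1% higher and 10.5% lower, and with libraries centred 11.4% higher and 13.1% lower, beside 13 and 2 members). The members' median difference was 0.45, that of all genes 0.05. Btg2 and Phlda3 were under 1 linear unit in both siKlf5 libraries too. Without Btg2, Phlda3 and Moap1, 14 of 31 members were higher and 2 lower. In the arrest arm siTfap2c stood higher for Cdkn1a (1.48, SE 0.19, adjusted p = 0.000611), Ccng1 (1.34, SE 0.13, adjusted p = 0.000125), Plk2 (0.89, SE 0.11, adjusted p = 0.000503) and Zmat3 (0.94, SE 0.16, adjusted p = 0.00266). In the death arm it stood higher for Trp53inp1 (1.45, SE 0.10, adjusted p = 1.92e-05), Pmaip1 (1.33, SE 0.25, adjusted p = 0.00393), Bbc3 (1.27, SE 0.26, adjusted p = 0.00643) and Apaf1 (0.82, SE 0.10, adjusted p = 0.000354). The members of lower level in siTfap2c were Perp, with a difference of -0.87 (adjusted p = 0.0122), and Xpc, with -0.53 (adjusted p = 0.0183). The other members higher in siTfap2c were Mdm2, Plk3, Btg2, Ddit4l, Polh and Eda2r, with differences of 0.45 (Mdm2) to 0.95 (Eda2r). The call of Bbc3 was lost without siKlf5 replicate 2 (adjusted p = 0.0552), that of Perp without siTfap2c replicate 2 or siKlf5 replicate 1 (highest adjusted p = 0.0944) and that of Xpc without any 1 of the 4 libraries (highest adjusted p = 0.0979). Those of Mdm2, Ddit4l and Polh were also lost without any 1 of the 4 libraries, that of Btg2 without either siTfap2c library or siKlf5 replicate 2 (highest adjusted p = 0.0801) and that of Eda2r without siTfap2c replicate 2 or siKlf5 replicate 2 (highest adjusted p = 0.0827). Btg3, Polk, Ei24 and Moap1, which were called higher in both knockdowns, differed between them by -0.45, 0.45, 0.12 and 0.37 (adjusted p = 0.111, 0.0582, 0.392 and 0.35).

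No member passed between the motif knockouts in the fit on their 6 libraries. Between CdxE2_KO and Arpc1bE_CdxE1_KO 0 of 34 members were called in limma, where 0.0458% of all genes were called (0.0366% higher and 0.00916% lower), and 6 had an unadjusted p under 0.05. These were Ppp1r13b, with a difference of 0.70 (SE 0.10, adjusted p = 0.174), and Ccng1, Zmat3, Phlda3, Cdkn1a and Eda2r, with differences of -0.67 (adjusted p = 0.24), -0.44 (adjusted p = 0.32), -0.50 (adjusted p = 0.391), -0.55 (adjusted p = 0.404) and -0.53 (adjusted p = 0.437). Ppp1r13b passed in the fit over all 10 libraries (adjusted p = 0.0343) and without either Arpc1bE_CdxE1_KO library (0.0436 and 0.042), and Ccng1 without Arpc1bE_CdxE1_KO replicate 2 (0.0457).

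A last pair of comparisons, chosen after the values had been seen, set siTfap2c against each motif knockout across tables. Against Arpc1bE_CdxE1_KO 6 members were higher and 7 lower, where 42.4% of all genes were called (7.12% higher and 35.3% lower), and against CdxE2_KO again 6 were higher and 7 lower, where 42.5% were called (6.1% higher and 36.4% lower). With libraries centred the members split into 9 higher and 2 lower against Arpc1bE_CdxE1_KO, where 33.2% of all genes were called (18.7% higher and 14.5% lower), and into 14 higher and 3 lower against CdxE2_KO, where 31.8% were called (17.7% higher and 14.1% lower). Trp53, Mdm4, Btg3, Ddit4l and Trp53inp1 were higher in siTfap2c than in both knockouts under both scalings. Trp53 was higher in siTfap2c by 0.96 (SE 0.12, adjusted p = 0.000292) and 0.91 (SE 0.12, adjusted p = 0.000397) as deposited and by 1.26 and 1.23 centred (adjusted p = 8.54e-05 and 0.000109). Mdm4 was higher by 0.93 (SE 0.06, adjusted p = 6.35e-06) and 0.79 (SE 0.06, adjusted p = 1.85e-05), and by 1.24 and 1.11 centred (adjusted p = 2.9e-06 and 5.37e-06). Perp differed by -2.80 (adjusted p = 1.1e-05) and -2.44 (adjusted p = 2.66e-05), and Gtse1 by -0.79 (adjusted p = 0.00032) and -0.79 (adjusted p = 0.000328), and both were called after centring too. Trp53inp1 was higher by 0.33 (SE 0.10, adjusted p = 0.0254) and 0.50 (SE 0.10, adjusted p = 0.00385), and Btg3 by 0.60 (SE 0.19, adjusted p = 0.0276) and 0.92 (SE 0.19, adjusted p = 0.00365). Ddit4l was higher by 0.63 (SE 0.15, adjusted p = 0.00735) and 0.45 (SE 0.15, adjusted p = 0.033), and by 0.94 and 0.77 centred (adjusted p = 0.00106 and 0.00326). As deposited the second was a call lost without any 1 of the 4 libraries (highest adjusted p = 0.143). Against Arpc1bE_CdxE1_KO the call of Trp53inp1 was lost without either siTfap2c library or Arpc1bE_CdxE1_KO replicate 2 (highest adjusted p = 0.116) and that of Btg3 without siTfap2c replicate 1 or Arpc1bE_CdxE1_KO replicate 2 (highest adjusted p = 0.187). Mdm2, Plk2, Zmat3, Bbc3 and Pmaip1 were called in neither comparison under either scaling.

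The rest of the pathway was read from 4 further gene lists, of which the further targets and the Bcl2 and caspase genes moved both ways in siTfap2c. Beside these counts stand the shares of all tested genes, 12.6% higher and 11.9% lower. Of 13 tested further p53 targets 2 rose and 4 fell, among them Sesn2, a second sestrin (0.74, SE 0.11, adjusted p = 0.00103), the glutathione peroxidase Gpx1 (-1.28, SE 0.08, adjusted p = 8.47e-06), the ferrireductase Steap3 (-1.54, SE 0.11, adjusted p = 1.39e-05) and the nuclear body protein Pml (-0.82, SE 0.13, adjusted p = 0.00148). Of 23 genes of DNA damage signalling 3 rose, 13% of the list and near the share of all genes: the kinase Atm (0.51, SE 0.06, adjusted p = 0.00052), the clamp loader Rad17 (0.69, SE 0.14, adjusted p = 0.00669) and the adaptor Mdc1 (0.44, SE 0.12, adjusted p = 0.0216). The call of Rad17 was lost without Ctrl replicate 2 (adjusted p = 0.0541) and that of Mdc1 without either siTfap2c library or Ctrl replicate 1 (highest adjusted p = 0.154). Of 14 p53 relatives, cofactors and ubiquitin ligases 0 rose and 1 fell, Trim24, a ubiquitin ligase of p53 (-0.31, SE 0.09, adjusted p = 0.0324), lost without any 1 of the 4 libraries (highest adjusted p = 0.204). Among 26 members of the Bcl2 family, caspases and their inhibitors 7 rose and 5 fell. Those of lowest p were the inhibitor Birc3 (-1.38, SE 0.12, adjusted p = 4.89e-05), the mitochondrial flavoprotein Aifm1 (0.84, SE 0.10, adjusted p = 0.000359), the survival protein Mcl1 (-0.48, SE 0.07, adjusted p = 0.000906) and the caspase Casp2 (0.83, SE 0.17, adjusted p = 0.00567). The medians of these lists lay between -0.06 and 0.11.

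In siKlf5, where 2.25% of all tested genes were higher and 5.27% lower, 3 of the 13 further targets fell: Steap3 (-1.52, SE 0.11, adjusted p = 0.000246), Pml (-0.75, SE 0.13, adjusted p = 0.0097) and Psrc1 (-0.66, SE 0.16, adjusted p = 0.0402). Of the 14 p53 relatives and cofactors 2 fell, Trim24 (-0.44, SE 0.09, adjusted p = 0.0194) and the methyltransferase Prmt5 (-0.34, SE 0.09, adjusted p = 0.0427). In DNA damage signalling 0 of 23 genes were called in limma and 3 had an unadjusted p under 0.05. The Bcl2 and caspase list had 1 rise, Casp2 (0.65, SE 0.17, adjusted p = 0.0458), and 3 falls, the nuclease Dffb (-1.16, SE 0.17, adjusted p = 0.00495), the survival gene Bcl2l1 (-0.66, SE 0.10, adjusted p = 0.00657) and Birc3 (-0.54, SE 0.12, adjusted p = 0.0269). Of these siKlf5 calls Steap3 and Dffb were kept without each single library. Pml was lost without siKlf5 replicate 2 or Ctrl replicate 2 (highest adjusted p = 0.0811), Bcl2l1 without siKlf5 replicate 2 or Ctrl replicate 1 (highest adjusted p = 0.0602), Casp2 without either siKlf5 library or Ctrl replicate 2 (highest adjusted p = 0.239), Birc3 without siKlf5 replicate 1 or either control library (highest adjusted p = 0.153), Trim24 without siKlf5 replicate 1 or either control library (highest adjusted p = 0.139), and Psrc1 and Prmt5 without any 1 of the 4 libraries.

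In the motif knockouts most calls of these lists were lost with libraries centred. Of all tested genes 23.2% were higher in Arpc1bE_CdxE1_KO and 28.5% in CdxE2_KO as deposited, and 1.63% and 2.64% after centring. As deposited 8 of 23 DNA damage genes rose in Arpc1bE_CdxE1_KO and 12 in CdxE2_KO, and after centring 0 and 1. Further p53 targets gave 6 and 7 of 13, and after centring 0 and 1, and the Bcl2 and caspase list gave 9 and 7 of 25, and after centring 1 and 2. Of the 14 relatives and cofactors 1 and 3 rose, and after centring 0 and 1. Genes called under both scalings, named after their values were seen, were Bcl2l11, the death gene Bim, in both knockouts (0.51 and 0.65 after centring, adjusted p = 0.0443 and 0.0158), and in CdxE2_KO the repair gene Rad50 (0.57, adjusted p = 0.0239), Sesn2 (0.58, adjusted p = 0.0407), Bcl2l2 (0.52, adjusted p = 0.0416) and Cdkn2a (0.75, adjusted p = 0.0481). Steap3 fell in both (-0.74 and -1.01 after centring, adjusted p = 0.0244 and 0.00713), and Brca2 fell in Arpc1bE_CdxE1_KO (-0.70, adjusted p = 0.0133). As deposited Brca2 was lost without either control library (highest adjusted p = 0.157), Steap3 in Arpc1bE_CdxE1_KO without Arpc1bE_CdxE1_KO replicate 1 or either control library (highest adjusted p = 0.183) and in CdxE2_KO without CdxE2_KO replicate 1 or Ctrl replicate 1 (highest adjusted p = 0.063), Bcl2l11 in Arpc1bE_CdxE1_KO without Ctrl replicate 2 (adjusted p = 0.0502) and Cdkn2a without CdxE2_KO replicate 2 or Ctrl replicate 1 (highest adjusted p = 0.0515).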

How the data were processed

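Total RNA of mouse embryos at the 8-cell stage was sequenced in 10 libraries. Per the labels' protocols, zona and polar bodies were removed and libraries were made with random primers and a stranded total RNA kit. Reads were handled with StringTie 1.3.4, Cufflinks, HISAT2 2.1.0 and SAMtools 1.7 on mm10, per the submitters' processing notes, which give no roles or order. The deposited values are log2 per the names of the 3 tables, with an added constant of 1 from their exact zeros, and the authors' kind of abundance is not given in the sources used here. Depth is unknown, so no counting interval is given.

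Every gene that reached 1 linear unit in 2 or more libraries entered limma 3.58.1 (R 4.3.3, trended eBayes), on all 10 libraries for the knockdowns (11195 genes, 5 residual degrees of freedom) and on the 6 libraries of their table for the motif knockouts (10920 genes, 3 residual degrees). Calls are at a Benjamini-Hochberg adjusted p under 0.05 over all tested genes, and the fits were tested on simulated data. Members and lists were chosen with earlier results of these data known. Members called in any comparison, and the regulators, are given per library, and up to 4 called genes of lowest p per further list. Positions are from GENCODE M21, and sequences were searched with Python 3.11.15.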

Additional observations from a re-analysis of the deposited data

How the results depend on the processing

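Libraries were centred, the added constant was set to 0.1, the filter was removed or set at 5 linear units, the set of libraries fitted was changed, a replicate block was added and each library was left out in turn, which leaves 1 group with 1 library that is assumed to vary like the others. Members called in siTfap2c against Ctrl stayed between 18 and 25. For siKlf5 against Ctrl the count of 7 became 1 with no filter and 0 to 2 without single libraries. For siTfap2c against siKlf5 it was 17, and 10 to 13 without single libraries. For Arpc1bE_CdxE1_KO against Ctrl 23 became 11 with libraries centred, 14 when also fitted on all 10 libraries, an alternative chosen after seeing the data, and 6 to 23 without single libraries. For CdxE2_KO against Ctrl 24 became 10, 15 and 10 to 19 in the same order. Between the knockouts 0 became 1 when fitted on all 10 libraries, centred or not, and 0 to 2 without single libraries. The cause was not tested.

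Among differences called under at least 1 of the scalings, the sign turned after centring for Topbp1 (-0.0284) and Usp7 (-0.067) in CdxE2_KO against Ctrl, the same in the fit on 10 libraries, for Bcl2l2 in siTfap2c against Arpc1bE_CdxE1_KO (0.0175), and for Aen (0.0023), Ei24 (0.28) and Trim24 (0.0591) in siTfap2c against CdxE2_KO. Of members called under neither scaling, the sign also turned for Trp53, Tigar and Xpc in both knockouts against Ctrl, for Btg3 and Pidd1 in Arpc1bE_CdxE1_KO and for Ppm1d, Phlda3 and Ddb2 in CdxE2_KO, and for further members in siTfap2c against the knockouts. The labels give no pairing of libraries with the same replicate number. The correlations of their deviations from group means lay between -0.03 and 0.05, which does not tell whether they share a batch or embryo pool. With the replicate block 24, 8, 17, 23, 24 and 0 members were called, against 25, 7, 17, 23, 24 and 0 without the block, in the order siTfap2c, siKlf5, siTfap2c against siKlf5, Arpc1bE_CdxE1_KO, CdxE2_KO and between the knockouts, and 14 against 13 for siTfap2c against each knockout. Limits are the 2 libraries a group, each knockdown and the control in separate tables, unknown depth, and an added constant that shrinks differences of low genes.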
